A study of Mus musculus with 20 samples.

Results

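The regions described here are the 200-bp bins of the mouse autosomes that lost DNA methylation in the liver of control offspring between birth and weaning. They were chosen by the measured values themselves. The reads of all CpGs with at least 10 reads in each of the 20 libraries were summed per bin, and a bin with at least 2 such CpGs was a member when its mean methylation in control livers at day 21 was at least 30 percentage points below the mean at day 0. Of the 104589 bins tested, 1020 were members (0.975%), or 1.58% of the 64581 bins whose Con-d0 mean was 30% or more and which could therefore fall that far. They held 3601 CpGs. A further 2180 bins moved by at least 30 points in the opposite direction.

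DNA methylation is the addition of a methyl group to the cytosine of a CpG. It is written by DNA methyltransferases and kept through cell division, and it is lost either when it is not copied or when TET enzymes oxidise it. In differentiating cells its loss is known from enhancers that a lineage comes to use. The mouse liver around birth is a blood-forming organ that becomes a metabolic organ within weeks, and its hepatocytes take on the synthesis of plasma proteins, bile acids, glucose and lipoproteins.

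The livers came from wild-type C57BL/6J mice labelled male, with 5 libraries in each of 4 groups. AME-d21 and AME-d0 were offspring of dams that ate a Western diet and were stressed in late gestation, a combination called the adverse maternal environment (AME). Con-d21 and Con-d0 were offspring of unstressed dams on the control diet. The d0 pups were taken by C-section and the d21 mice at weaning after a fast, so that age goes with delivery, suckling and fasting, and the 5 animals of a group came from 5 litters. Methylation was read by reduced representation bisulfite sequencing (RRBS), which covers fragments between MspI sites (CCGG), and is given in percent of reads. Libraries held 23248139 to 45769589 reads summed over CpGs. In the members, the median bin had between 72 and 129 reads per library.

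Some libraries stood apart. In AME-d21 replicate 4, 2.88 X reads were found for every 100 autosomal reads (all other libraries, 1.40 to 1.55), and 32.5 of every 1000000 reads lay on the first 10 Mb of the Y (all other libraries, 361 to 456), which goes against its label. Over all autosomal CpGs with reads, AME-d0 replicates 1 and 3 had 30.1 and 29.3% methylation, below the 34.4 to 37.9% of the other 8 libraries taken at d0. The count of members lower in AME-d21 and the median differences between AME and Con are therefore also given without them. The levels, locations, motif shares and gene list values include all 20 libraries.

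The sequences of 7 members show what such a bin holds, with the measured CpGs in capitals and the plus strand of GRCm38, the assembly of mm10, written 5′ to 3′. They were taken from genes described further on: an intron of Palld at chr8:61558201-61558400, an intron of Slc22a23 at chr13:34223201-34223400, coding exons of Fgg at chr3:83012801-83013000, Fgb at chr3:83049601-83049800 and Pck1 at chr2:173156001-173156200, an intron of Ppara at chr15:85746801-85747000, and a coding exon of Runx3 at chr4:135155201-135155400. Most were sparse in CpGs, with 2 measured CpGs in the Palld and Pck1 bins, 3 in that of Ppara and 5 in those of Slc22a23 and Fgb. The Fgg exon held 12 and the Runx3 exon 6.
Palld: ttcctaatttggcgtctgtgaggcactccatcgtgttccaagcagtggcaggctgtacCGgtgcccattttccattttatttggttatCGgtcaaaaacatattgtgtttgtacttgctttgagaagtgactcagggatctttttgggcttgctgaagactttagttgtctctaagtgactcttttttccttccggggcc
Slc22a23: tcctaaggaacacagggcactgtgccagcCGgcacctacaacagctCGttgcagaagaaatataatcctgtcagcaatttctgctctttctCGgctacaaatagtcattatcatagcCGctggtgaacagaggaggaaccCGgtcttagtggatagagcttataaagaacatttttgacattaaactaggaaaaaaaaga
Fgg: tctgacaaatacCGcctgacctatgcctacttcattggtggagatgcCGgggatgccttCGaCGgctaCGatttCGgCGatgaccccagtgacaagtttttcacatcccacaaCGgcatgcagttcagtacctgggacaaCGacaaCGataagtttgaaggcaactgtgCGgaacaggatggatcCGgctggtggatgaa
Fgb: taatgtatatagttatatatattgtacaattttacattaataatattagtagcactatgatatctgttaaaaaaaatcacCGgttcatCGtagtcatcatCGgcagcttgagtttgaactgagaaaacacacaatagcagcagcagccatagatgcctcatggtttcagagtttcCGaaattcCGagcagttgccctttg
Pck1: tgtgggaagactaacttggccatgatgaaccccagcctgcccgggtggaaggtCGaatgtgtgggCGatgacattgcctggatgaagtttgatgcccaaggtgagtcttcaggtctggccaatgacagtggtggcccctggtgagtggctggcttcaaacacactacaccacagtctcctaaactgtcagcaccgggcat
Ppara: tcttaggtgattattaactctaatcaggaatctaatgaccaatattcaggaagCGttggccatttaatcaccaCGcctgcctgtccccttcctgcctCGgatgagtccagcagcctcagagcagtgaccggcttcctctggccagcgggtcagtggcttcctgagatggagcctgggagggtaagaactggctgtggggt
Runx3: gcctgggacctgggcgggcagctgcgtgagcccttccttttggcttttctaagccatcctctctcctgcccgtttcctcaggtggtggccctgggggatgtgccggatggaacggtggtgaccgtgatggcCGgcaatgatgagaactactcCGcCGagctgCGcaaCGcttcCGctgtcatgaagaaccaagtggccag

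The members were mostly unmethylated at d21 and mostly methylated at d0, but few were emptied. Their median methylation per library was 24.1, 23.3, 24.7, 24.5 and 25.1% in AME-d21, 22.0, 25, 23.3, 22.2 and 23.6% in Con-d21, 60, 62.9, 60.8, 62.3 and 63.1% in AME-d0 and 63.5, 63.6, 64.4, 63.1 and 64.4% in Con-d0. Every library taken at d21 was thus below every library taken at d0, which for the controls is the rule that chose the bins. At d21, 575 members in AME-d21 and 577 in Con-d21 had a mean between 20 and 40%, and 94 in AME-d21 and 98 in Con-d21 were below 10%. The control means were 24.0% at d21 and 63.6% at d0 in the median member, with a median change of -37.4 points (-69.95 to -30.002). This direction was against that of the series. Over the 64581 bins with a Con-d0 mean of at least 30%, the library medians were 85.1 to 86.0% in AME-d21, 85.4 to 85.7% in Con-d21, 70.5 to 76.0% in AME-d0 and 75 to 78.6% in Con-d0. In bulk liver, a change in the share of a cell type and a change within its cells cannot be told apart.

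**Figure D1:**
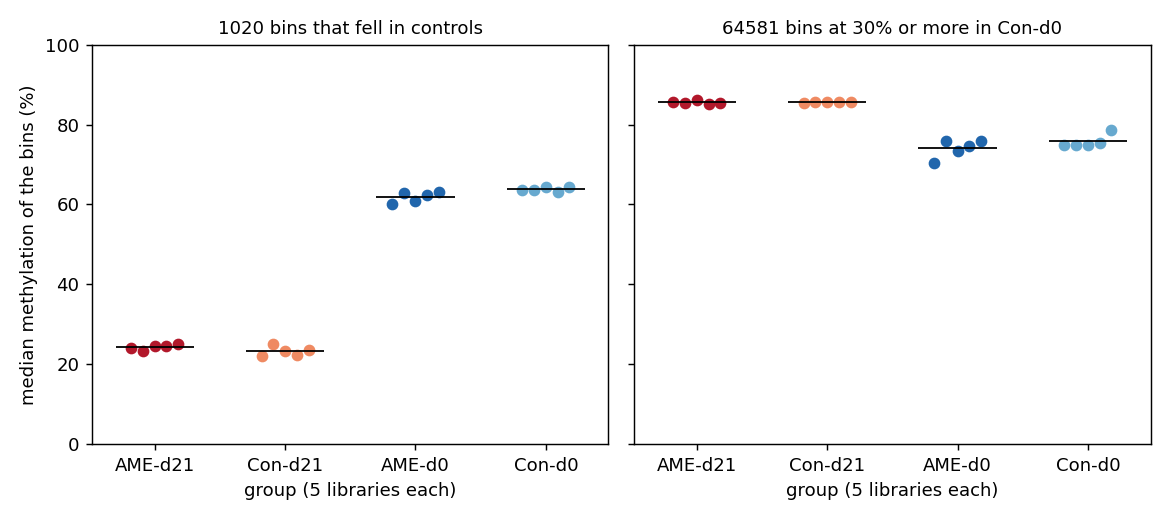
Median methylation in percent of the 1020 members (left) and of the 64581 bins with a Con-d0 mean of at least 30% (right), with 1 point per library and a line at the mean of the 5 libraries of each group. The members sit at 22.0 to 25.1% in the libraries taken at d21 and at 60 to 64.4% in those taken at d0, while the bins on the right are higher at d21 than at d0.

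The AME offspring, whose values did not choose the bins, give a test of the fall. All 1020 members had a lower mean in AME-d21 than in AME-d0, with a median change of -35.0 points (-68.7 to -12.1). By limma on the log2 ratio of methylated over unmethylated reads, with p-values adjusted over all 104589 bins, 1018 of the 1020 members were lower in AME-d21, against 3.83% of all bins tested (4007 bins), and no member was higher, against 44.9% of all bins. Every AME-d21 library was below every AME-d0 library in 971 members, against 2.69% of all bins. The fall reached 30 points in 757 members, lay between 20 and 30 points in 239 and was smaller in 24, and over all bins 0.835% fell by 30 points or more in AME offspring. The 116 bins that did so and were not members had a median control change of -26.9 points. Without AME-d21 replicate 4 the test called 1016 members, and without AME-d0 replicates 1 and 3 it called 1012. The fits that left out 1 AME library called 3697 to 3880 of all bins. The count over all bins without both AME-d0 replicates is not given here. A quasi-binomial model of the counts called 1016 members and 3.45% of all bins.

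**Figure D2:**
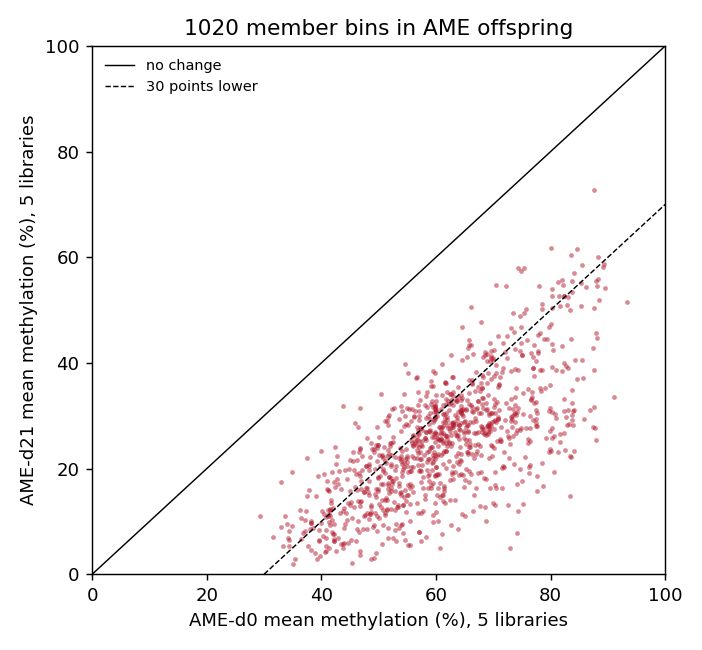
Mean methylation of each of the 1020 members in AME-d21 (vertical) against AME-d0 (horizontal), in percent over 5 libraries each. All points lie under the solid line of no change, and 757 lie on or under the dashed line of a fall of 30 points.

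The largest control falls were spread over genes of many kinds. The bin in an intron of Palld, which encodes the actin-associated protein palladin, read 8.77, 6.35, 9.26, 6.59 and 7.89% in AME-d21 and 75.3, 80.4, 67.3, 77.6 and 69.8% in AME-d0. It read 11.9, 13.8, 4.94, 2.63 and 8.11% in Con-d21 and 71.9, 80, 76.1, 78.5 and 84.6% in Con-d0. The ages did not overlap in AME offspring, whose log2 ratio changed by -4.82 (SE 0.27, limma adjusted p = 2.35e-08). In an intron of Slc22a23, a member of a family of organic ion transporters, AME-d21 read 8.51, 4.24, 1.52, 4.84 and 6.00% and AME-d0 75, 72.2, 71.4, 75.8 and 70.1%, while Con-d21 averaged 9.04 ± 2.83% and Con-d0 67.8 ± 3.83% (SD, n = 5 each). This was the largest log2 change among the bins named here, at -5.63 (SE 0.34, limma adjusted p = 4.87e-08). A coding exon of Mgat1, the enzyme that starts complex N-glycans, had 25.4 ± 5.79% in AME-d21, 25.4 ± 5.36% in Con-d21, 88.0 ± 5.59% in AME-d0 and 91.1 ± 4.06% in Con-d0. Other bins with large falls lay between genes at -36848 bp from the start of Rassf8 (14.8 ± 6.18% in AME-d21 and 83.5 ± 6.30% in AME-d0) and in an intron of Nfia, a transcription factor of the nuclear factor I family (28.1 ± 10.1% in AME-d21 and 77.7 ± 2.28% in AME-d0).

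**Figure D3:**
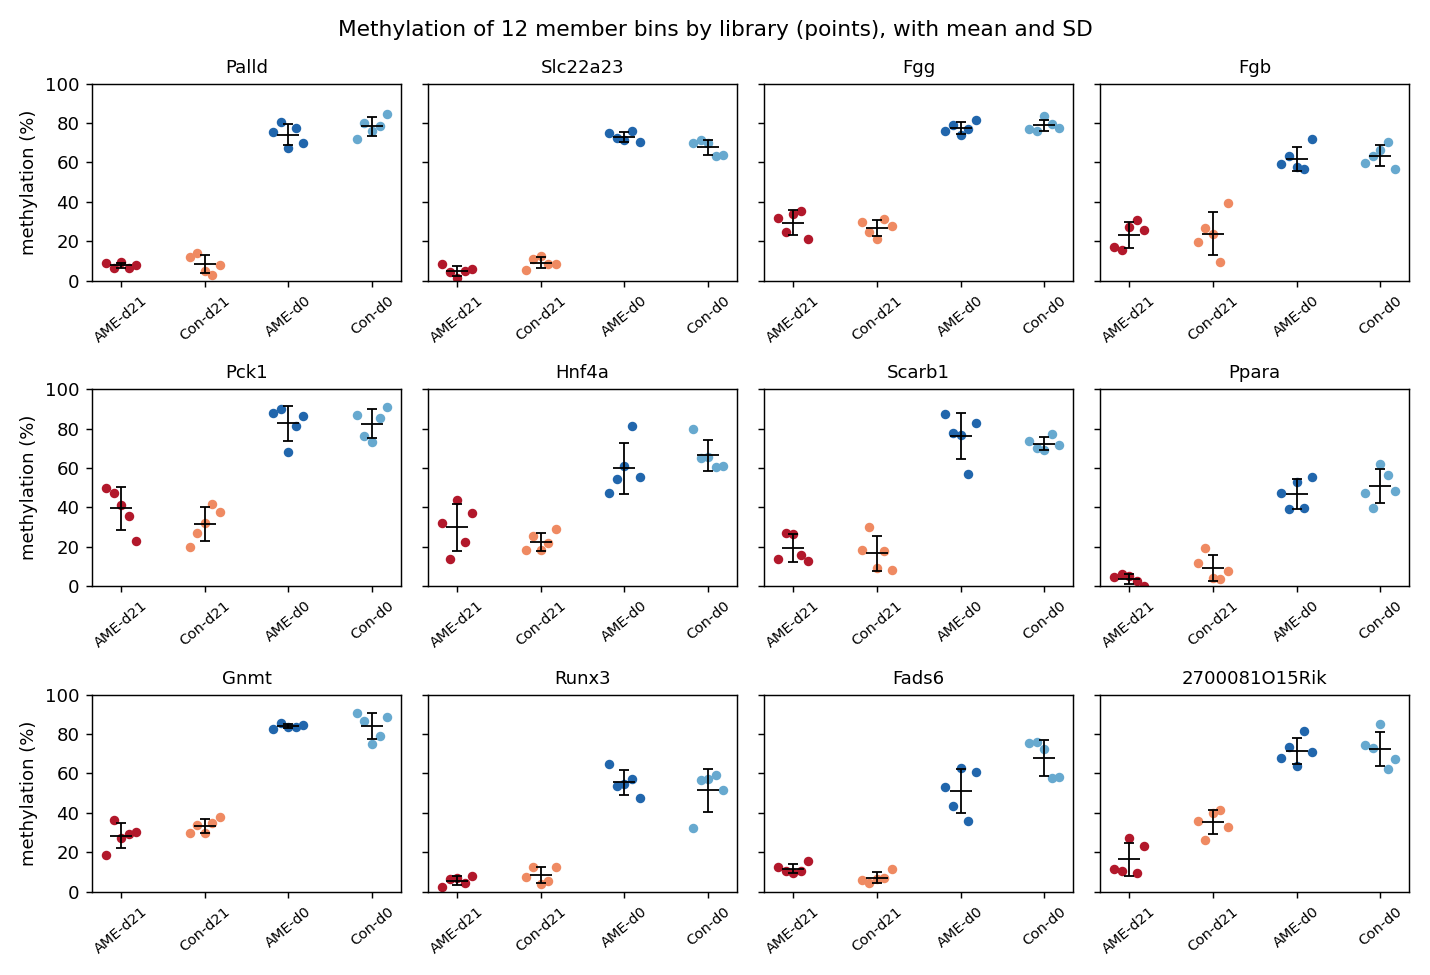
Methylation in percent of 12 members, with 1 point per library and a black mark and bar for the mean and SD of the 5 libraries of AME-d21, Con-d21, AME-d0 and Con-d0. The Palld, Slc22a23, Ppara and Runx3 bins lie under 20% in every d21 library, while those of Fgg, Pck1, Hnf4a and Gnmt keep intermediate levels at d21. The 2700081O15Rik bin has lower values in AME-d21 (9.20 to 27.1%) than in Con-d21 (26.3 to 41.3%).

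Genes of hepatocytes and of the plasma proteins they secrete held many members. The gene lists used here and below were chosen with earlier results of these data known. Over all protein-coding genes with a tested bin in the gene or within 5 kb upstream, 671 of 15561 held a member (4.31%) and 1125 a bin that rose by 30 points in controls (7.23%). Of 13 measured hepatocyte markers, 6 held a member (Trf with 4, Pck1 and Fgb with 2 each, Hnf4a, F2 and Ahsg with 1 each) and none a bin that rose, and 11 of their 36 bins were members, against 0.975% of all bins. The changes of these 11 in AME offspring were -43.3 to -21.8 points. All 11 were called lower by limma, as were 1018 of all 1020 members. Of 26 measured genes of plasma proteins and coagulation, 6 held a member, and 1 held a bin that rose.

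The fibrinogen chains lay side by side in this. In a coding exon of Fgg, read at 12 CpGs with 304 to 719 reads per library, AME-d21 had 31.9, 24.7, 33.9, 35.5 and 21.04% and AME-d0 had 76.0, 79.2, 73.8, 77.0 and 81.5%, and the control means were 26.8 ± 4.09% at d21 and 78.8 ± 2.99% at d0. The lowest AME-d0 library was far above the highest AME-d21 library, and the log2 change was -3.07 (SE 0.28, limma adjusted p = 1.40e-06). Both bins at the start of Fgb fell, that in a coding exon to 23.3 ± 6.61% in AME-d21, against 61.7 ± 6.23% in AME-d0 (limma adjusted p = 2.52e-05). Prothrombin (F2) had 27.9 ± 6.47% in AME-d21 and 61.1 ± 2.55% in AME-d0, 906 bp into the gene. Ahsg, which encodes fetuin-A, had 27.1 ± 4.37% in AME-d21 and 64.8 ± 5.94% in AME-d0. Itih4, a secreted protease inhibitor family member, had 29.1 ± 8.71% in AME-d21 and 70.1 ± 11.99% in AME-d0, and Serpinf2, the plasmin inhibitor, 30.6 ± 11.6% in AME-d21 and 67.6 ± 8.53% in AME-d0. In Trf, which encodes the iron carrier transferrin, 4 bins close to each other fell, and they ended at 31.4 to 49.5% in AME-d21, against 59.9 to 75.9% in AME-d0.

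Pck1 and Hnf4a varied between libraries, about as much as Itih4 and Serpinf2. A coding exon of Pck1, the rate-limiting enzyme of gluconeogenesis, read 50, 47.5, 41.2, 35.4 and 23.1% in AME-d21 and 88.1, 90.0, 67.9, 81.0 and 86.5% in AME-d0, with only 20 to 72 reads per library. Con-d21 read 20, 26.9, 32, 41.7 and 37.5% and Con-d0 86.7, 76.4, 73.2, 85.3 and 90.7%. The ages did not overlap in AME offspring, and the fall passed the test (log2 change -2.84, SE 0.39, limma adjusted p = 4.93e-05). An intron of Hnf4a, the nuclear receptor that keeps hepatocyte identity, read 32.1, 13.9, 43.5, 22.4 and 37.0% in AME-d21 and 47.5, 54.3, 60.9, 81.2 and 55.3% in AME-d0. The closest libraries of the 2 ages were 43.5 and 47.5%, and the AME fall passed with a smaller margin (log2 change -1.91, SE 0.45, limma adjusted p = 0.00263).

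Genes of lipid handling also held members. Members were found in 6 of 20 measured genes of lipoproteins and lipid transport and in 6 of 25 of fatty acid oxidation. They were also found in 5 of 26 of fatty acid and triglyceride synthesis, against 4.31% of all genes. A bin that rose by 30 points in controls was held by 3, 2 and 2 genes of these lists, against 7.23% of all genes. All 24 of these members were called lower in AME offspring by limma, as were 1018 of all 1020 members. Scarb1, the receptor for high-density lipoprotein, held 6 of them in its introns, at 17.4 to 38.6% in AME-d21 and 33.0 to 81.0% in AME-d0. The bin with the largest fall read 13.6, 26.9, 26.7, 16.0 and 12.5% in AME-d21 and 87.5, 77.5, 76.9, 56.7 and 82.8% in AME-d0 (log2 change -3.64, SE 0.40, limma adjusted p = 6.79e-06), at 20 to 64 reads per library.

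Among genes of fatty acid oxidation, 2 adjacent bins in coding exons of Decr2, a peroxisomal enzyme for unsaturated fatty acids, had 19.98 and 22.1% in AME-d21, against 74.7 and 83.6% in AME-d0. Ppara, the fatty acid-sensing nuclear receptor that switches on oxidation, had 2 adjacent bins in an intron that ended at different levels. The first averaged 37.0% in AME-d21 and 69.7% in AME-d0. The second read 4.44, 5.95, 5.13, 2.56 and 0% in AME-d21, 11.8, 19.5, 4.30, 3.33 and 7.69% in Con-d21, 47.4, 38.9, 52.9, 39.6 and 55.1% in AME-d0 and 47.2, 39.7, 61.9, 56.6 and 48.1% in Con-d0, and its AME fall had a log2 change of -4.45 (SE 0.47, limma adjusted p = 5.35e-06). Acsl1, which activates long-chain fatty acids, had 32.7 ± 3.41% in AME-d21 and 67.4 ± 14.4% in AME-d0. Of the elongases, an intron of Elovl5 had 31.6 ± 8.22% in AME-d21 and 79.9 ± 9.08% in AME-d0.

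Genes of amino acid, sugar, methyl-group and bile acid metabolism followed. Over all genes, 4.31% held a member and 7.23% a bin that rose. Of 29 measured genes of amino acid and urea metabolism, 8 held a member and none a bin that rose, and their 9 members changed by -35.4 to -16.7 points in AME offspring. Asl, an enzyme of the urea cycle, had 29.6 ± 8.21% in AME-d21 and 61.6 ± 7.83% in AME-d0, and Ftcd, which breaks down histidine, 43.8 ± 4.64% in AME-d21 and 74.9 ± 4.55% in AME-d0. Of 15 measured genes of the methionine cycle, 2 held a bin that rose. Only Gnmt, the liver enzyme that uses up S-adenosylmethionine, held a member, and it held 3. Its coding exon read 18.6, 36.4, 27.0, 29.3 and 30.3% in AME-d21, 29.8, 33.9, 29.7, 35.0 and 37.9% in Con-d21, 82.7, 85.4, 83.6, 83.4 and 84.8% in AME-d0 and 90.5, 86.4, 74.8, 79.1 and 88.7% in Con-d0 (AME log2 change -3.72, SE 0.27, limma adjusted p = 2.58e-07). Of 21 measured genes of glucose metabolism, 4 held a member: Pck1, Tkfc, Ldha and Fbp1. A bin that rose lay in 3 of the 21, Ldha among them. Fbp1, an enzyme of gluconeogenesis, had 22.6 ± 5.03% in AME-d21 and 59.4 ± 7.25% in AME-d0, and Tkfc, the kinase of fructose breakdown, had 23.2 ± 11.1% in AME-d21 and 65.5 ± 3.61% in AME-d0 at its start site. Of 13 genes of bile acid synthesis and transport, Hsd3b7, an early enzyme of bile acid synthesis (31.1 ± 8.01% in AME-d21 and 71.1 ± 4.96% in AME-d0), and Klb, the co-receptor of FGF21 (15.7 ± 2.94% in AME-d21 and 45.0 ± 3.61% in AME-d0), held 1 each near their starts.

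Some lists held none. No member lay in the 21 measured genes of cytochrome P450 and oxidoreductases, in the 18 clock genes, in the 25 neuronal or in the 22 housekeeping genes. These lists had 70, 131, 214 and 98 tested bins, of which 0.975% would be members at the share of all bins.

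Of 38 measured hepatocyte transcription factors, 6 held a member (Nfia and Zfhx3 with 3 each, Ppara with 2, Hnf4a, Zbtb20 and Nfix with 1 each), while 10 held a bin that rose by 30 points in controls. Over all genes these shares were 4.31% and 7.23%, but the list had a median of 9 tested bins per gene, against 4 over all genes. Of its 454 bins, 11 were members (2.42%, against 0.975% of all bins). Zfhx3, a homeobox factor, had 22.0 ± 5.31% in AME-d21 and 56.7 ± 6.69% in AME-d0. Nfix, a relative of Nfia, kept more methylation, with 54.5 ± 5.47% in AME-d21 and 78.0 ± 4.81% in AME-d0 (limma adjusted p = 0.000426), and also held 8 bins that rose. In signalling, 3 of 25 measured genes of the insulin, growth hormone and IGF pathways held a member, and 1 a bin that rose. Insr, the insulin receptor, had 34.8 ± 4.37% in AME-d21 and 78.2 ± 4.35% in AME-d0, and Stat5b, which carries the growth hormone signal, had 36.9 ± 5.01% in AME-d21 and 84.6 ± 2.85% in AME-d0 in a coding exon and 2 further members.

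Of 20 measured genes of haematopoietic progenitors and myeloid cells, 3 held members and 7 a bin that rose. Over all genes these shares were 4.31% and 7.23%. The 3 were the transcription factors Runx3 with 6 members, Runx1 with 2 and Gfi1 with 1. These 9 members had a median of 7.92% in AME-d21 and 46.8% in AME-d0, with 4.15 to 24.1% in AME-d21. The 11 members of hepatocyte markers had a median of 29.8% in AME-d21 and 61.7% in AME-d0, with 21.1 to 49.5% in AME-d21, so that the ranges overlap, and the difference was not tested. In the coding exon of Runx3, AME-d21 read 2.41, 6.43, 6.75, 4.20 and 7.69%, Con-d21 7.60, 12.6, 4.02, 5.52 and 12.2%, AME-d0 65.0, 53.7, 54.4, 57.1 and 47.5% and Con-d0 32.3, 56.9, 57.3, 59.0 and 51.4%. Con-d0 replicate 1 was the lowest of the d0 libraries there, yet above every d21 library. The AME log2 change was -4.39 (SE 0.32, limma adjusted p = 2.69e-07). Runx1 had 6.56 ± 4.25% in AME-d21 and 45.2 ± 7.15% in AME-d0 over 15 CpGs, and Gfi1 had 4.15 ± 3.81% in AME-d21 and 40.6 ± 7.16% in AME-d0 over 12.

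These exons lie in CpG islands inside genes. Of the 1020 members, 33 were in a CpG island, of which 26 overlapped a coding exon and only 2 were within 1 kb of a transcription start site (TSS). The island members had a median of 15.4% in AME-d21 and 57.0% in AME-d0, and 14 of them (42.4%) were under 10% in AME-d21. The 987 members outside islands had 25.5% in AME-d21 and 61.3% in AME-d0, and 8.11% of them were under 10% in AME-d21.

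Few members lay at markers of other liver cells, but lists of this size would hold few at the share of all genes (4.31% with a member, 7.23% with a bin that rose). None of the measured genes of the erythroid (16), megakaryocyte and platelet (12), B cell (9), endothelial (22), Kupffer cell (14) and cholangiocyte (17) lists held a member, and of 20 stellate cell and matrix genes only Tgfb1 did. Of the same lists, 2, 3, 2, 6, 1 and 0 genes, and none of the stellate cell list, held a bin that rose. Promoter methylation of most of these lists differed between the ages. CpGs of members were not left out, and member bins of Fgb and F2 lay within 1 kb of the TSS. The hepatocyte values that follow therefore partly repeat the choice of the members. Over the 4 hepatocyte markers with at least 3 measured CpGs within 1 kb of the TSS, the library means were 30.5 to 34.5% in AME-d21, 25.1 to 35.2% in Con-d21, 55.5 to 61.8% in AME-d0 and 58.6 to 62.5% in Con-d0. Over 11 genes of haematopoietic progenitors and myeloid cells they were 18.3 to 19.3% in AME-d21, 17.95 to 19.3% in Con-d21, 8.29 to 9.77% in AME-d0 and 9.55 to 11.8% in Con-d0. Over 10 erythroid genes they were 13.3 to 16.2% in AME-d21, 13.1 to 14.8% in Con-d21, 6.10 to 8.61% in AME-d0 and 7.36 to 10.2% in Con-d0. The platelet, B cell, endothelial and stellate cell lists were also higher in every d21 library than in every d0 library, with 27.1 to 30.3% in AME-d21, 26.998 to 30.2% in Con-d21, 12.6 to 15.9% in AME-d0 and 13.3 to 20.1% in Con-d0 over 11 endothelial genes. The ages overlapped over 6 Kupffer cell genes (12.6 to 15.97% in AME-d21 and 12.3 to 12.98% in AME-d0) and over 13 cholangiocyte genes (14.7 to 15.97% in AME-d21 and 13.9 to 15.3% in AME-d0). The part that a changing cell mixture had in the fall of the members was not tested.

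Among fetal liver genes, 2 of 16 held a member, against 4.31% of all genes. The bin at -4836 bp from the start of Afp, which encodes the fetal plasma protein alpha-fetoprotein and is known to be silenced after birth, fell to 26.1 ± 5.93% in AME-d21, against 62.0 ± 6.17% in AME-d0 (limma adjusted p = 3.03e-05). Another bin of Afp, 19000 bp away, was among those that rose and had 47.2% in AME-d21 and 8.93% in AME-d0. In all, 115 of the 671 genes with a member also held a bin that rose by 30 points in controls.

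Some genes held several members. Gm20388, a gene model that overlaps others, held 14 of its 804 tested bins, those of Gse1 among them, as well as 43 bins that rose. Gse1 held 7, Scarb1, Rnf220 and Runx3 6 each, and Whamm, 2700081O15Rik and Mical3 5 each. In Gse1, which spans 112 tested bins, the 7 members lay in introns, with 3.47 to 26.2% in AME-d21 and 39.7 to 80.7% in AME-d0, and 11 other bins of the gene rose. The nearest member and risen bin of Gse1 were 1000 bp apart, and the risen bins had a median of 73.9% in AME-d21 and 18.7% in AME-d0. In Rnf220, which encodes a ubiquitin ligase, the member with the largest fall read 11.5, 5.56, 7.69, 0.617 and 14.1% in AME-d21 and 69.7, 48.4, 68.1, 54.0 and 44.9% in AME-d0. In Whamm, a protein of actin assembly, the 5 members had 18.9 to 38.7% in AME-d21 and 64.6 to 85.8% in AME-d0.

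Members lay in introns more often than the bins they are set against. Of the members, 51.0% overlapped an intron and no exon, against 33.2% of the bins with a Con-d0 mean of at least 30%. The share was 42.0% of the bins that rose and 31.0% of all bins. Coding exons held 18.5%, 18.1%, 18.9% and 21.3% of these 4 sets, and the space between genes 20.9%, 39.5%, 27.9% and 31.4%. Within 1 kb of the TSS of a protein-coding gene lay 113 members (11.1%), against 3.44% of the bins with a Con-d0 mean of at least 30% and 28.9% of all bins, and 11.6% of the bins that rose. The median distance to a TSS was 12760 bp for members, 30780 bp for the bins with a Con-d0 mean of at least 30% and 14549 bp for the bins that rose. CpG islands held 3.24% of members, 4.34% of the bins with a Con-d0 mean of at least 30% and 9.31% of the bins that rose, the shores within 2 kb of an island held 10%, 6.03% and 11.2% of these sets, and bins without a repeat-masked base made up 56.9%, 40.2% and 54.0%. Base composition was alike, with a median of 53.0% G and C in members, 52.5% in the bins with a Con-d0 mean of at least 30% and 54.0% in the bins that rose, and a median of 5 CpGs per bin in each. Every autosome held members, with 26 on chromosome 13 as the fewest.

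The members at start sites lay in genes of several kinds, and the share of liver genes among them was not counted. Those with the largest control falls also included bins of Entpd8, Macf1, Tpst1, Egln2, Zfp768 and Fam71e1. Slc25a47, a mitochondrial carrier of the liver, had 20.8 ± 4.14% in AME-d21, 17.5 ± 1.45% in Con-d21, 73.6 ± 4.30% in AME-d0 and 68.9 ± 7.13% in Con-d0 in the bin at its start (limma adjusted p = 6.95e-07 for the AME fall). Rhoc, a small GTPase, had 8.53 ± 4.88% in AME-d21, 5.80 ± 3.02% in Con-d21, 63.8 ± 4.15% in AME-d0 and 63.0 ± 3.09% in Con-d0. Proz, which encodes protein Z of coagulation, held 3 members within 1 kb of its start, at 21.9 to 24.9% in AME-d21 and 53.9 to 62.8% in AME-d0, and Klf15, a factor of fasting metabolism, held 3 at 16.3 to 27.5% in AME-d21 and 61.4 to 72.8% in AME-d0. The median AME change was -34.6 points in the members within 1 kb of a TSS and -35.1 points in the others.

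Letters bound by some hepatocyte transcription factors, namely FOXA, HNF4, nuclear receptors, NFI and HNF6, had higher shares in the members than in the other sets, while those of CEBP and HNF1 had similar shares; no difference was tested. The FOXA letters TGTTTAC, sought on both strands like all others, were in 5.00% of the members, 2.20% of the bins with a Con-d0 mean of at least 30%, 1.38% of the bins that rose and 1.91% of all bins. For the HNF4 letters AAAGTCC the shares were 5.78%, 2.55%, 2.39% and 2.44%. The nuclear receptor core AGGTCA was in 20.8%, 11.7%, 9.72% and 10.4%, and its longer form AAGGTCA, which contains it, in 7.65%, 3.19%, 2.02% and 2.77%. For the NFI core TTGGCA they were 18.1%, 9.59%, 8.49% and 8.55%, and for HNF6, ATTGAT, 7.55%, 4.41%, 3.44% and 3.45%. The CEBP letters TTGCAA were in 3.24%, 3.41%, 2.98% and 3.16%, the HNF1 core GTTAAT in 4.80%, 4.50%, 3.62% and 3.60%, and the AP-1 letters TGANTCA in 6.47%, 4.51%, 5.83% and 3.81%. For factors of blood cells, the PU.1 letters AGGAAGT were in 3.04%, 4.001%, 13.1% and 3.99% of the same sets, and the GATA letters AGATAA in 8.92%, 7.30%, 11.4% and 6.00%. The E-box CACGTG was in 3.82%, 3.71%, 3.62% and 4.11% of the same sets, and the CTCF core AGGGGGC in 3.14%, 3.08%, 5.28% and 5.27%. These shares are descriptions, and members that lie beside each other are not independent. The letters were not fixed in advance. They were chosen with earlier results of these data known and shortened after a first search.

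**Figure D4:**
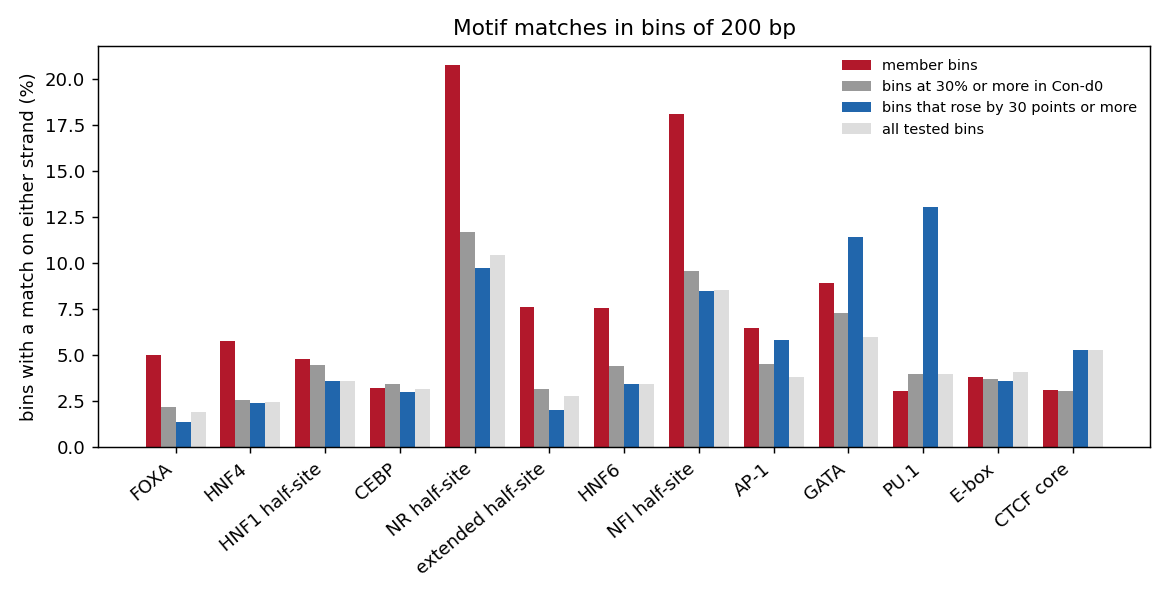
Percent of bins with a match on either strand for 13 sets of letters, in the 1020 members, the 64581 bins with a Con-d0 mean of at least 30%, the 2180 bins that rose by 30 points or more in controls and all 104589 bins. The members have the highest share for FOXA, HNF4, both forms of the nuclear receptor core, HNF6, NFI, AP-1 and, by a small margin, HNF1. The bins that rose have the highest share for PU.1 and GATA. The letters were chosen with earlier results of these data known.

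Matches to the FOXA letters are shown for the 4 members that hold them and fell most in AME offspring, as 41 bases on the plus strand with the match in capitals. They lay in a coding exon of Paqr7 at chr4:134506902-134506942, and in introns of Eif2ak1 at chr5:143820122-143820162, Slc13a3 at chr2:165466441-165466481 and Ostn at chr16:27343231-27343271. Their bins had 33.5, 23.1, 25.7 and 14.0% in AME-d21, against 91.1, 79.7, 76.0 and 63.3% in AME-d0.
Paqr7: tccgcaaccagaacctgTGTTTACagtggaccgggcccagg
Eif2ak1: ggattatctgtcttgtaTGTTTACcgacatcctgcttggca
Slc13a3: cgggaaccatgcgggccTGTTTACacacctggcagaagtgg
Ostn: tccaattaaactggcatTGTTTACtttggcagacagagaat

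The same is given for the HNF4 letters. They lay in a bin of Rfk that overlapped an exon but no coding sequence, at chr19:17400601-17400641, and in an intron of Cdc42bpb at chr12:111353533-111353573. The others lay in coding exons of Zfp768 at chr7:127344456-127344496 (minus strand) and Whamm at chr7:81596010-81596050. Their bins had 15.7, 12.7, 26.6 and 31.2% in AME-d21, against 77.7, 68.5, 81.7 and 84.1% in AME-d0.
Rfk: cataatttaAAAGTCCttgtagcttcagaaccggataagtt
Cdc42bpb: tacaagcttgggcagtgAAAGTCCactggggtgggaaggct
Zfp768: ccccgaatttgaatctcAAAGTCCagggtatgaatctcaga
Whamm: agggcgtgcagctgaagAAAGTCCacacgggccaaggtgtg

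The bins beside a member often fell as well, and the fall faded over about 1 kb. Few members had a tested bin next to them, since RRBS reads scattered fragments: 227 had one 200 bp upstream and 223 one 200 bp downstream, and 131 of these on each side were members themselves. Over all tested bins, members included, the median change in AME offspring was -29.9 points at -200 bp and -30.3 points at 200 bp, then -18.3 points at -400 bp and -24.4 points at 400 bp, and -0.014 points at -1000 bp and -0.745 points at 1000 bp. Of the bins 200 bp away, 184 were not members, which leaves out those with the largest falls by the rule. They had a median change of -16.1 points in AME offspring and -18.3 points in controls, and 123 of them (66.8%) were lower in AME-d21 by limma, against 3.83% of all bins. Among bins that were not members, 23.2% of 177 at 400 to 1000 bp and 9.89% of 273 at 1200 to 2000 bp were called lower. Joined over gaps of up to 1 kb, the members formed 866 regions, of which 728 were a lone bin, in most cases with no tested bin beside it. The largest joined 5 bins in 2700081O15Rik, and regions of 4 bins lay in Trf and near Tuba1c. Within a member the CpGs moved together. Of the 3601 CpGs, 99.6% were lower in AME-d21 than in AME-d0 and 92.3% by at least 20 points, and in 793 members (77.7%) every CpG fell by at least 20 points in AME offspring. The CpGs of a bin share reads.

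**Figure D5:**
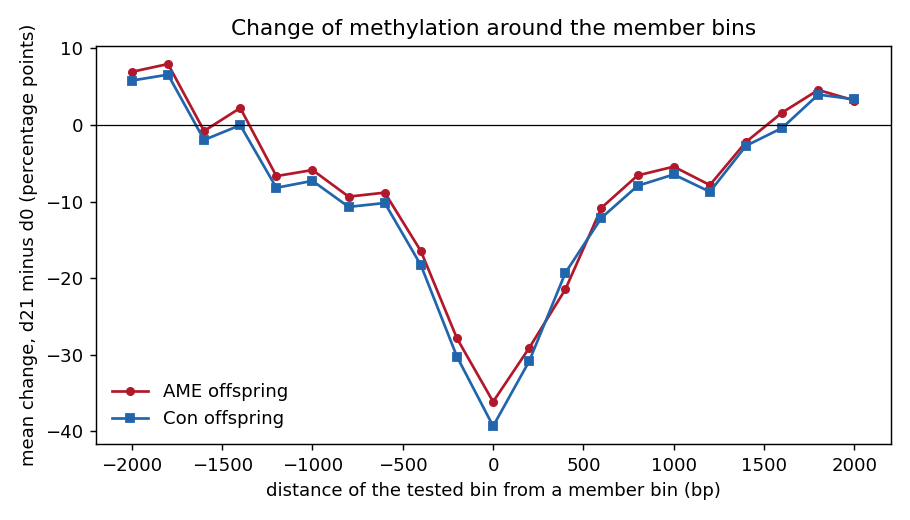
Mean change in methylation, d21 minus d0 in percentage points, of the tested bins at each distance in bp from a member, in AME offspring (circles) and Con offspring (squares). The mean is -36.1 in AME and -39.3 in Con at the members, which the control values chose, and lies near or above 0 at 2000 bp on either side.

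Between AME and control offspring of the same age no bin passed the test. The difference AME-d0 minus Con-d0 had a median of -1.94 points over the members, against -1.49 over the bins with a Con-d0 mean of at least 30%, and -0.98 without AME-d0 replicates 1 and 3. AME-d21 minus Con-d21 had a median of 0.853 points over the members and -0.030 over those bins. The choice of members leans both: they were taken where control means were high at d0 and low at d21, so that other libraries are likely to lie lower at d0 and higher at d21. By limma, 0 of 1020 members differed at d0 and 0 at d21, against 0% of all 104589 bins at either age. At an unadjusted p under 0.05, 52 members and 5686 of all bins differed at d0, and 68 and 5268 at d21. The quasi-binomial model also called 0 bins at both ages. At an unadjusted p under 0.05 it had 64 members and 4208 of all bins at d0, and 48 and 2873 at d21. The difference between the AME and the control change with age was past the adjusted threshold in 0 members and 0% of all bins, with 72 members and 5206 bins at an unadjusted p under 0.05 by limma. Groups that did not overlap were few. Every AME-d0 library was below every Con-d0 library in 9 members (0.882%, against 0.693% of all bins) and above in 2 (0.196%, against 0.146%). Every AME-d21 library was below every Con-d21 library in 3 members (0.294%, against 0.348% of all bins) and above in 9 (0.882%, against 0.318%), the direction to which the choice of members leans.

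The members with the largest differences between AME and Con are given as values, since they were picked for them. In a coding exon of 2700081O15Rik, read at 11 CpGs, AME-d21 had 11.5, 10.5, 27.1, 9.20 and 23.3% and Con-d21 had 35.6, 26.3, 40, 41.3 and 32.7%, with 1 AME-d21 library above the lowest Con-d21 library. AME-d0 had 71.5 ± 6.69% and Con-d0 had 72.5 ± 8.54% there. The difference at d21 was -18.9 points (limma adjusted p = 0.979). In an intron of Lrp5, a Wnt co-receptor, AME-d21 had 45.7 ± 5.93% and Con-d21 30.8 ± 10.1%. At d0, an intron of Fads6, a member of the fatty acid desaturase family, read 53.3, 43.3, 62.5, 35.9 and 60.5% in AME-d0 and 75.6, 75.8, 72.2, 57.8 and 58.0% in Con-d0, with overlap. A coding exon of Ldlrad3 read 34.3, 50, 49.0, 46.7 and 53.6% in AME-d0 and 73.0, 65.7, 53.7, 57.7 and 66.7% in Con-d0, where the groups just missed each other (limma adjusted p = 0.894).

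Only 2 members were not called lower in AME-d21 by limma. The bin 30012 bp downstream of the start of Wnt4 read 24.2, 22.2, 59.8, 52.4 and 40.6% in AME-d21 and 54.0, 68.3, 35.6, 61.9 and 53.5% in AME-d0 (log2 change -0.90, SE 0.45, limma adjusted p = 0.114). The bin at -12218 bp from the start of Ranbp9 read 33.3, 38.2, 33.3, 25 and 28.9% in AME-d21 and 45, 35.3, 60, 43.2 and 35.7% in AME-d0 (log2 change -0.72, SE 0.31, limma adjusted p = 0.0637), at 20 to 80 reads per library. In both the ages overlapped. An intron of Blm, a DNA helicase, had 72.8 ± 11.6% in AME-d21, 59.6 ± 2.64% in Con-d21, 87.5 ± 6.61% in AME-d0 and 89.7 ± 4.19% in Con-d0 (limma adjusted p = 0.0250 for the AME fall), and lost its call in 5 of the fits that left out a library.

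The threshold of 30 points cut through a continuous range. The 3 members just inside it lay in 2700081O15Rik, Atg16l1 and Olfr56, with control changes of -30.06, -30.007 and -30.002 points and AME changes of -27.4, -27.1 and -28.1 points. The 3 bins just outside lay near Rbm19, in Agap1 and near Cbln4, with control changes of -29.99, -29.98 and -29.98 points and AME changes of -32.4, -19.7 and -28.1 points.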

How the data were processed

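RRBS libraries of whole ground liver were made for 5 animals in each of 4 groups. Whether the 5 came from different litters is not stated. Per the labels and the submitters' processing notes, the authors' processing used FastQC, Trim Galore, Bismark and the mm10 build; BWA is also named there. The deposited tables give the counts of methylated and unmethylated reads of each CpG and the methylation level in percent. Whether duplicate reads were removed is not stated there, so reads are not taken as independent molecules. The percent column was not used for tests. 1 non-CG position was left out.

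CpGs were kept when every library had 10 or more reads there, and their counts were summed in autosomal bins of 200 bp with at least 2 such CpGs. Groups of 5 libraries were compared with limma 3.58.1 (R 4.3.3, with data.table in version 1.17.8), fitted to log2((methylated + 1)/(unmethylated + 1)); the p-values were adjusted by Benjamini-Hochberg over all 104589 bins and read at a threshold of 0.05. The code was tested on simulated data. Errors are SDs over libraries. The p-values set the difference between groups against the spread between libraries, which comes from the animals and from read sampling. Tables were handled with Python 3.11.15, NumPy 2.4.6, pandas 2.3.3 and matplotlib 3.10.9. Genes were taken from GENCODE M21 on GRCm38, whose chromosomes are those of mm10. A bin was classed by overlap in the order coding exon, UTR exon, intron, non-coding gene only, between genes, and its distance was measured from its middle to the nearest protein-coding TSS. For CpG islands, 500-bp windows needed a G and C content of 55% and a CpG ratio, observed to expected, of 0.65.

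The members, the 29 gene lists and the 13 sets of motif letters were chosen with earlier results of these data known, and the motif letters were shortened after a first search. Named genes were the 20 largest control falls, the 10 genes with most members and the 12 largest falls within 1 kb of a TSS. Up to 6 genes of each list, the 3 bins on each side of the threshold and the 5 smallest falls in AME offspring were added. So were the 3 largest differences between AME and Con at each age. A part of these is given, beside the members shown for their motifs. Klf15 was named outside these rules. Alternatives changed the coverage minimum, the size of the fall, the CpGs per bin, the bin borders, the scale, the added reads, the model, the libraries in the fit and a replicate block. Some items withheld for evaluation are not reported here.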

Additional observations from a re-analysis of the deposited data

Results flagged for a closer look

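In 9 of 188 groups of 5 libraries looked at (the named members and the median over all members), the highest or lowest library stood apart from the other 4 by Dixon's criterion, about the 1 in 20 that chance gives. In AME-d21, Gfi1 had 10.8% in replicate 3 (1.14 to 3.30% in the others) and Slc25a47 had 13.7% in replicate 5 (21.2 to 23.8%). In AME-d0, Hsd3b7 had 62.5% in replicate 3 (71.7 to 75.2%), Insr had 86.0% in replicate 4 (75.9 to 76.7%) and Zfhx3 had 45.1% in replicate 4 (57.5 to 61.4%). In Con-d0, Rassf8 had 70.5% in replicate 3 (82.6 to 87.2%), Hnf4a had 80% in replicate 1 (60.5 to 65.6%), Serpinf2 had 58.7% in replicate 2 (68.9 to 73.0%) and Runx3 had 32.3% in replicate 1 (51.4 to 59.0%).

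Outside the autosomal bins, the X of AME-d21 replicate 4 took 2.88 reads for every 100 on the autosomes, and that of each other library 1.40 to 1.55. The cause was not tested.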

How the results depend on the processing

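The number of members followed the rule's settings: 1532 with a minimum of 5 reads, 394 with 20 reads, 1960 with a fall of at least 20 points, 389 with at least 40 points and 623 with at least 3 CpGs per bin. It was 997 to 1064 without each control library in turn, and 964 to 997 of the 1020 members were kept. With 20 reads, 394 of 394 members and 1817 bins in all were lower in AME-d21, since fewer bins were tested. Without each AME library in turn the test called 1015 to 1019 members and 3697 to 3880 bins, with a median change of -35.3 to -34.8 points. The median AME-d0 minus Con-d0 difference was then -2.33 to -1.53 points, and that of AME-d21 minus Con-d21 0.643 to 1.22 points, and 0 members differed at either age. Same-numbered libraries did not deviate together (correlations of -0.014 to 0.026), and a fit with the replicate number as a block called 1018 members and 3874 bins. Of 801 values of 46 named bins under the alternatives, 791 kept their direction and side of the threshold and 0 reversed. Blm lost its call in 6, and Wnt4 and Ranbp9 gained one in 4. RRBS reads only bins near MspI sites, and most members had 2 to 4 CpGs, which limits single bins more than the counts.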
